A study of Mus musculus with 16 samples.

Results

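*Trp53* encodes p53, and 35 genes were followed as p53 itself, its regulators and its direct transcriptional targets, chosen by symbol from the 30386 genes of the deposited table. The samples were neural stem/progenitor cells (NSPCs) derived from the subventricular zone (SVZ) of C57BL/6 J/Babr mice aged 3 months, transfected with the plasmid pTP6-*Dbx2* (*Dbx2*-NSPCs, 8 samples) or pTP6-hrGFP as the control (*GFP*-NSPCs, 8 samples). Both groups carried a constitutively expressed transgene, were kept under puromycin and were grown as bulk, non-adherent cultures with EGF and FGF2. The study used different pairs of lines from independent derivations, with repeated experiments for each pair, and the labels do not say which line a sample came from, so the p-values measure the spread between these 16 samples. RNA was read by 3′ mRNA sequencing (QuantSeq), and the values are CPM, the reads of a gene scaled to a fixed total per sample.

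p53 is a transcription factor that is held at low level by the ubiquitin ligase Mdm2 and its partner Mdm4, and that is stabilised by DNA damage and other stress. Its targets arrest the cell cycle, repair DNA, alter metabolism or start apoptosis, and some of them, *Mdm2* included, restrain p53 in turn. In the adult SVZ, p53 is known to limit the proliferation and self-renewal of NSPCs. A change in p53 activity is often seen in the mRNA of its targets rather than in that of *Trp53*, since the protein is controlled mainly by its stability.

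The depth was 1804660 to 3260284 recovered reads in *GFP*-NSPCs and 2215074 to 3294873 in *Dbx2*-NSPCs, so that 3 reads were worth 0.911 to 1.66 CPM. *Dbx2* was listed at 30.7 to 171 CPM in *GFP*-NSPCs (median 64.4) and at 114 to 232 CPM in *Dbx2*-NSPCs (median 147). The overlap came from *GFP*-NSPC replicates 1 and 3, with replicate 1 at 171 CPM, above all but 1 of the *Dbx2*-NSPCs, while *GFP*-NSPC replicates 5 to 8 were at 30.7 to 39.5 CPM. The summed CPM of 8 NSPC markers was 5375 to 6251 in *GFP*-NSPCs and 4403 to 5998 in *Dbx2*-NSPCs, with *Fabp7*, *Pax6* and *Egfr* lower in *Dbx2*-NSPCs. Microglial markers summed to at most 1.96 CPM in any sample, 4 of 6 of them at or under 3 reads everywhere. *GFP*-NSPC replicate 1 stood apart from the other *GFP*-NSPCs, with 6.96% of its reads in mitochondrial genes (3.18 to 4.80% in the others) and a summed level of 10 immediate early genes of 1771 CPM (685 to 1112 CPM in the others). Replicates 1 to 4 and 5 to 8 of each group are also given apart, as 2 replicate sets, and a block on replicate number compares each *Dbx2* sample with the *GFP* sample of its number. The labels do not say that samples of the same number were paired.

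RefSeq promoters of GRCm38.p6, from 250 bases before to 50 bases after the start, were matched by symbol for 27 of the 35 genes, with 34 starts in all. The 10-base p53 half-site was searched on both strands and was found in 11 of these 34 promoters (32.4%), against 2745 of 32851 (8.36%) of all promoters. The 11 belong to 10 genes, since overlapping starts of *Aen* hold the same site. Sequence outside these 300 bases was not searched. Of the 10 genes that were higher in *Dbx2*-NSPCs, 9 had a promoter entry, and *Ccng1*, *Ei24* and *Polk* held a half-site. Of the other 25 genes, 18 had an entry and 7 held a half-site, *Trp53* and *Mdm2* included. A pair of half-sites with at most 13 bases between them was in none of the 34 promoters, and in 24 of all promoters (0.0731%). The promoters printed are those of *Trp53* and its antagonist *Mdm2*, which were not called, beside *Ccng1* and *Ei24*, which were higher in *Dbx2*-NSPCs, each on its gene's strand from 5′ to 3′ with the half-site in capitals. The half-site begins 75 bases before the start in *Trp53* (chr11:69580109-69580408, plus strand), 186 in *Mdm2* (chr10:117710709-117711008, minus strand), 185 in *Ccng1* (chr11:40755237-40755536, minus strand) and 10 in *Ei24* (chr9:36797285-36797584, minus strand). A match is a run of letters and no evidence of binding.
*Trp53*: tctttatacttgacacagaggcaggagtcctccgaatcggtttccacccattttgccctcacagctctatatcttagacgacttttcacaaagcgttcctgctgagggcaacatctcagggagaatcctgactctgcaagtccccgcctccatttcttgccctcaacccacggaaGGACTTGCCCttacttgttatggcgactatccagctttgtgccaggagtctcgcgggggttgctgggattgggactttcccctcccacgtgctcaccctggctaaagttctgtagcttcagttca
*Mdm2*: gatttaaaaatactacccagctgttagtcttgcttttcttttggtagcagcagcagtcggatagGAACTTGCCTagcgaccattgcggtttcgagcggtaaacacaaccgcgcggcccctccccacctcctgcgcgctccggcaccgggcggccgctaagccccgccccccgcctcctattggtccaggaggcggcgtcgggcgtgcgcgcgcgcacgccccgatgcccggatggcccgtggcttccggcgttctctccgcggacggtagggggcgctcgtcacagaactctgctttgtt
*Ccng1*: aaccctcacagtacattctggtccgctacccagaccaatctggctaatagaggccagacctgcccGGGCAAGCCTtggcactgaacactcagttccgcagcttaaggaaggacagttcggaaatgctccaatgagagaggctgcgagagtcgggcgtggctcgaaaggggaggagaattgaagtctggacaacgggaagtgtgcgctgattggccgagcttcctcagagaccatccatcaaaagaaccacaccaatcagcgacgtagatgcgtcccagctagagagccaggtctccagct
*Ei24*: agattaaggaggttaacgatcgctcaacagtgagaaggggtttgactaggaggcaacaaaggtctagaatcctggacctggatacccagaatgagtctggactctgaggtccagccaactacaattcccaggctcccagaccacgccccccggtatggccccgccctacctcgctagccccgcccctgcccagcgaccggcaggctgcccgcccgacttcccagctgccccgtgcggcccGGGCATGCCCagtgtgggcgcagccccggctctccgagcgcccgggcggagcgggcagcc

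All 35 genes had a row in the table and 32 passed the filter on low values (more than 1 CPM in at least 4 of 16 samples). Between *Dbx2*-NSPCs and *GFP*-NSPCs, 10 of the 32 were higher and 1 was lower at an adjusted p under 0.05 (limma on log2(CPM + 0.5), Benjamini-Hochberg over all 12533 genes tested), where 8.03% of all genes tested were higher and 7.78% lower. The 10 were *Ccng1*, *Trp53inp1*, *Btg2*, *Phlda3*, *Ei24*, *Fas*, *Gadd45g*, *Polk*, *Eda2r* and *Dcxr*, and the lower one was *Btg1*. In bulk RNA, a higher level per cell and more cells with a high level cannot be told apart. The median log2 fold change of the 32 was 0.29 and that of all genes tested was -0.02, with 25 of 32 above 0 (78.1%) against 47.3% of all genes. The 21 genes that were not called had log2 fold changes of -0.38 to 0.67 with adjusted p of 0.059 to 0.896, 15 above 0 and 6 below. The genes were chosen by name with earlier results of these data known, so these counts carry no test and are no independent support.

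**Figure D1:**
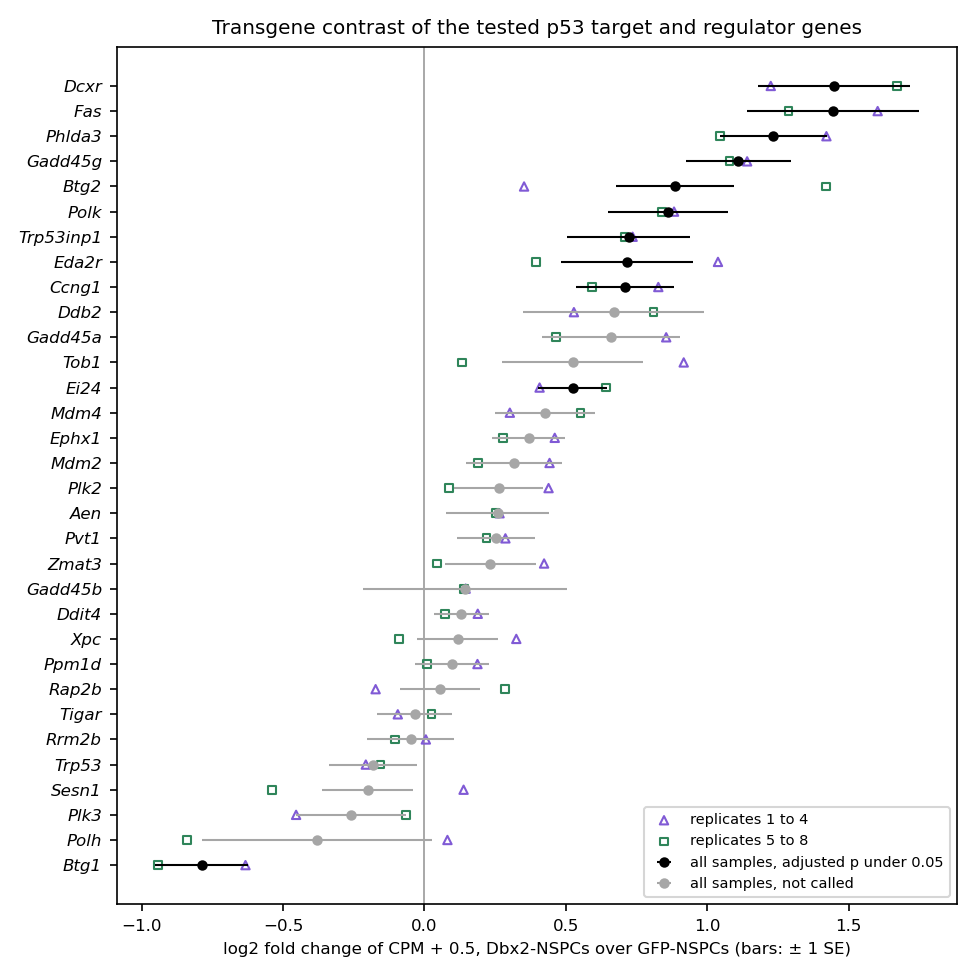
log2 fold change of CPM + 0.5, *Dbx2*-NSPCs over *GFP*-NSPCs, of the 32 genes tested (circles over 16 samples, bars 1 SE, black where called) with the fold within replicates 1 to 4 (triangles) and 5 to 8 (squares). *Dcxr*, *Fas* and *Phlda3* are at the top with 1.45, 1.44 and 1.23, and *Btg1* is lowest with -0.79.

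Of p53 and its direct regulators (5 genes, all tested), 1 was higher, as were 8.03% of all genes. *Trp53* (chromosome 11, 69580359 to 69591873, GRCm38) was at 14.9 to 24.9 CPM in *GFP*-NSPCs (median 17.9) and at 11.8 to 23.4 CPM in *Dbx2*-NSPCs (median 18.0). The ranges lay almost on top of each other, the log2 fold change was -0.18 (SE 0.155, adjusted p = 0.476), and *Trp53* was higher in the *Dbx2* sample of 2 of 8 replicate numbers.

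*Mdm2* (chromosome 10, 117688875 to 117710758), the ubiquitin ligase that removes p53, was at 86.0 to 195 CPM in *GFP*-NSPCs (median 126) and at 124 to 206 CPM in *Dbx2*-NSPCs (median 169). *GFP*-NSPC replicates 5 to 8 lay within the range of *Dbx2*-NSPCs, and the log2 fold change of 0.32 did not pass (SE 0.169, adjusted p = 0.226). In the fit that blocks on replicate number its adjusted p was 0.0177. *Mdm4* (chromosome 1, 132959484 to 133030561), the Mdm2 relative that blocks the transactivation domain of p53, was at 52.2 to 84.8 CPM in *GFP*-NSPCs (median 67.7) and at 52.0 to 134 CPM in *Dbx2*-NSPCs (median 90.0). Its groups overlapped as well, with a log2 fold change of 0.43 (SE 0.177, adjusted p = 0.113, and 0.00783 with the block). Both antagonists were higher in the *Dbx2* sample of 7 of 8 numbers.

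*Ccng1* (chromosome 11, 40748552 to 40755311) encodes cyclin G1, a p53 target that activates Mdm2 through the phosphatase PP2A. It was at 77.0 to 228 CPM in *GFP*-NSPCs (median 140) and at 192 to 257 CPM in *Dbx2*-NSPCs (median 238). *GFP*-NSPC replicate 1 had the highest *GFP* value and was within the range of *Dbx2*-NSPCs, as was replicate 7 at its lower edge. *Ccng1* rose by 0.71 on the log2 scale (SE 0.173, adjusted p = 0.00805) and was higher in the *Dbx2* sample of all 8 numbers. *Ppm1d*, the phosphatase that reverses p53 phosphorylation, had a log2 fold change of 0.10 (adjusted p = 0.670).

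The genes that restrain growth (8 genes, all tested) moved in both directions, with 2 higher (8.03% of all genes) and 1 lower (7.78%). *Btg1* and *Btg2* are related antiproliferative factors that promote mRNA deadenylation, and they went opposite ways. *Btg1* (chromosome 10, 96617006 to 96622809) was at 30.2 to 64.8 CPM in *GFP*-NSPCs (median 43.9) and at 19.4 to 35.7 CPM in *Dbx2*-NSPCs (median 25.2). The groups overlapped by *GFP*-NSPC replicates 1 and 2, the lowest of the controls. *Btg1* fell by 0.79 on the log2 scale (SE 0.166, adjusted p = 0.00269) and was lower in the *Dbx2* sample of every replicate number. *Btg2* (chromosome 1, 134075170 to 134079120) was at 19.3 to 55.6 CPM in *GFP*-NSPCs (median 30.0) and at 40.0 to 88.3 CPM in *Dbx2*-NSPCs (median 56.8). Only *GFP*-NSPC replicate 1 was as high as *Dbx2*-NSPCs, and *Btg2* rose by 0.89 (SE 0.207, adjusted p = 0.00612).

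The 3 Gadd45 genes encode small stress sensors that act on p38 signalling and the G2/M transition. *Gadd45g* (chromosome 13, 51846678 to 51848468) was at 78.7 to 184 CPM in *GFP*-NSPCs (median 95.2) and at 135 to 307 CPM in *Dbx2*-NSPCs (median 262). The overlap came from *GFP*-NSPC replicates 1 and 2 and *Dbx2*-NSPC replicates 6 and 7, whereas within replicates 1 to 4 and within 5 to 8 the groups were apart. It rose by 1.11 on the log2 scale (SE 0.186, adjusted p = 0.000358). *Gadd45a*, the family member most often described as a p53 target, had a log2 fold change of 0.66 (adjusted p = 0.0728, and 0.0245 with the block), at medians of 8.72 and 14.1 CPM. *Gadd45b* was at 0.14 (adjusted p = 0.835). *Tob1*, another antiproliferative factor of the BTG family, was at 0.52 (adjusted p = 0.168, and 0.0478 with the block), and the polo-like kinases *Plk2* and *Plk3* were at 0.26 and -0.26 (adjusted p of 0.282 and 0.401).

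**Figure D2:**
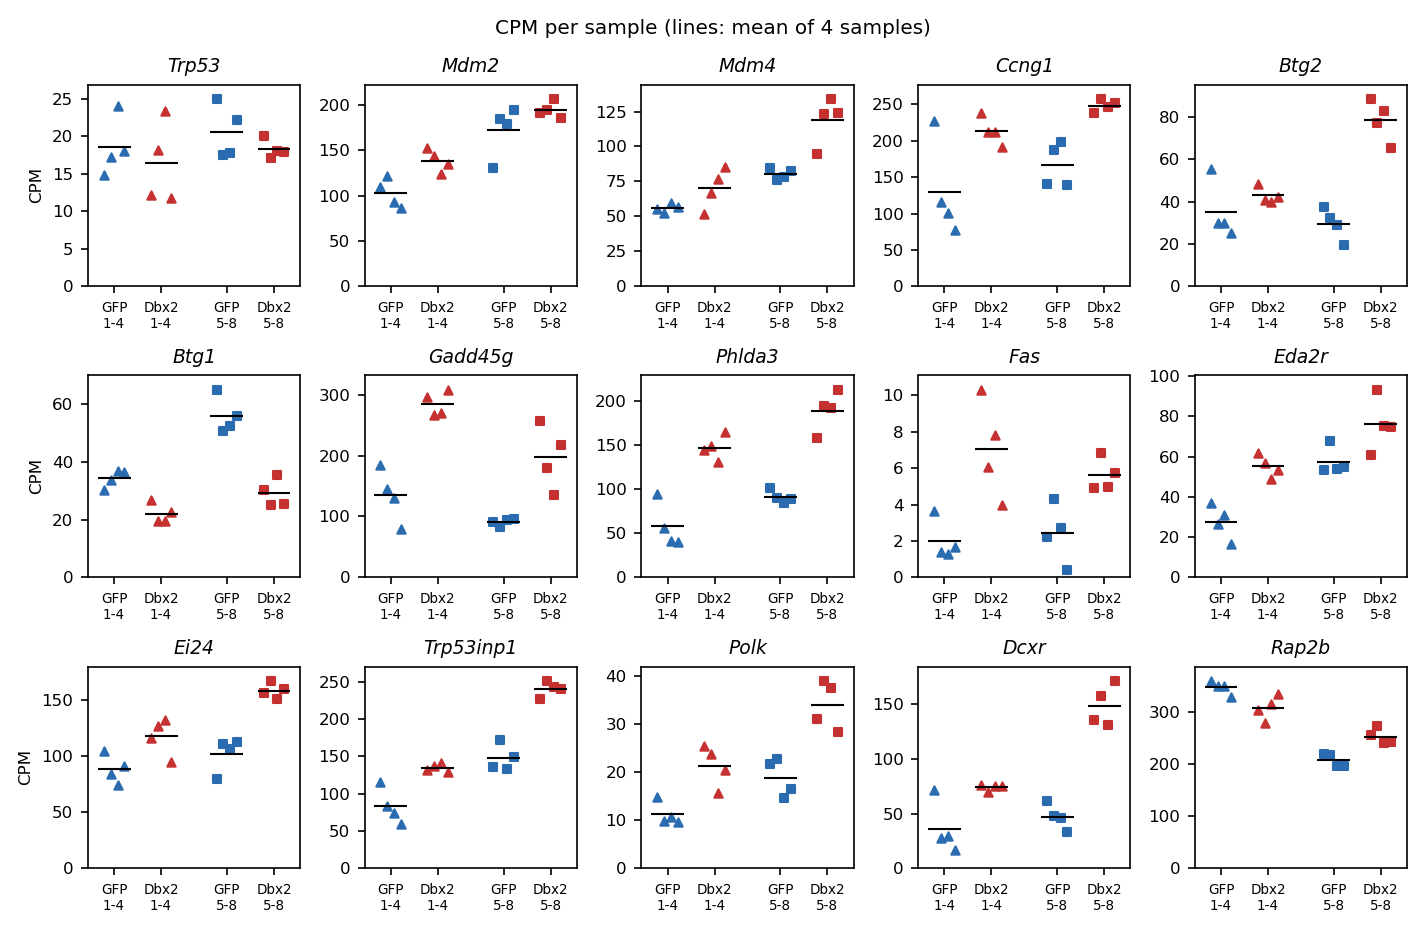
CPM (linear axes from 0) of the 11 genes called, of *Trp53*, *Mdm2* and *Mdm4*, and of *Rap2b*, in every *GFP*-NSPC (blue) and *Dbx2*-NSPC (red) sample, replicates 1 to 4 and 5 to 8 apart, with the mean of each set of 4 as a line. *Phlda3* is the gene whose groups do not overlap, at up to 101 CPM against at least 130 CPM.

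In cell death and survival signalling (9 genes, 7 tested), 5 were higher, as were 8.03% of all genes. *Phlda3* (chromosome 1, 135766119 to 135769136) encodes a pleckstrin homology protein that keeps Akt off the membrane. It was at 40.0 to 101 CPM in *GFP*-NSPCs (median 86.6) and at 130 to 212 CPM in *Dbx2*-NSPCs (median 161). Every *Dbx2* sample was above every *GFP* sample, which held for *Phlda3* alone among the 32 genes and for 1.60% of all genes tested, and no gene of the 32 was wholly apart downwards, as 1.81% of all genes were. *Phlda3* rose by 1.23 on the log2 scale (SE 0.189, adjusted p = 0.00016).

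Of the receptor genes called, *Fas* was close to the limit of detection and *Eda2r* was moderate in level. *Fas* (chromosome 19, 34290666 to 34327772), the receptor of Fas ligand, was at 0.41 to 4.29 CPM in *GFP*-NSPCs (median 1.95) and at 3.95 to 10.3 CPM in *Dbx2*-NSPCs (median 5.91). One *GFP* sample was at or under 3 reads, and *GFP*-NSPC replicate 6 was just above the lowest *Dbx2* sample. The log2 fold change was 1.44 (SE 0.303, adjusted p = 0.00266), which the pseudocount of 0.5 understates at such levels. *Eda2r* (chromosome X, 97333840 to 97377216), the receptor of ectodysplasin A2, was at 16.3 to 67.8 CPM in *GFP*-NSPCs (median 45.1) and at 48.8 to 92.9 CPM in *Dbx2*-NSPCs (median 61.4). *GFP*-NSPC replicates 5 to 8 overlapped with *Dbx2*-NSPC replicates 1 to 5, and the call was near the threshold (0.72, SE 0.232, adjusted p = 0.0415). It was kept in 17 of 30 alternative settings, with adjusted p up to 0.0823 (0.055 without *GFP*-NSPC replicate 1).

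*Trp53inp1* (chromosome 4, 11156431 to 11174379), a p53-induced nuclear protein with a part in apoptosis and autophagy, was at 59.0 to 171 CPM in *GFP*-NSPCs (median 124) and at 128 to 250 CPM in *Dbx2*-NSPCs (median 184). The groups overlapped across the replicate sets and were apart within each. It rose by 0.72 (SE 0.218, adjusted p = 0.0294), a call kept in 22 of 30 alternatives with adjusted p up to 0.0605. *Ei24* (chromosome 9, 36779159 to 36797393), an endoplasmic reticulum protein needed for autophagy, was at 74.0 to 113 CPM in *GFP*-NSPCs (median 98.0) and at 94.7 to 166 CPM in *Dbx2*-NSPCs (median 142). *Dbx2*-NSPC replicate 4 was the only *Dbx2* sample inside the range of *GFP*-NSPCs. *Ei24* rose by 0.52 (SE 0.122, adjusted p = 0.00582). The nuclease gene *Aen* and the RNA-binding factor gene *Zmat3* were at 0.26 and 0.23 (adjusted p of 0.367 and 0.355).

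The 3 genes that did not pass the filter were hardly read. *Tnfrsf10b*, the mouse TRAIL receptor, was at 5.24 CPM in *GFP*-NSPC replicate 1 and at most at 1.28 CPM in the other samples. *Perp*, which encodes a desmosomal protein, was at 0.9 CPM in *Dbx2*-NSPC replicate 7 and at 0 in the others. *Cd82*, a tetraspanin gene listed with metabolism, signalling and other functions, was at 0 in all 16 samples. They were not tested, and no difference was detectable at this depth.

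Of the genes of DNA repair and nucleotide supply (5 genes, all tested), 1 was higher, as were 8.03% of all genes. *Polk* (chromosome 13, 96480690 to 96542579), the translesion polymerase kappa, was at 9.66 to 22.7 CPM in *GFP*-NSPCs (median 14.8) and at 15.6 to 38.8 CPM in *Dbx2*-NSPCs (median 26.9). Within each set of 4 replicates the groups did not overlap, and *Polk* rose by 0.86 (SE 0.211, adjusted p = 0.00839). *Xpc*, which recognises DNA lesions, had a log2 fold change of 0.12 (adjusted p = 0.639), and *Rrm2b*, the p53-induced subunit of ribonucleotide reductase, of -0.05 (adjusted p = 0.872). *Ddb2*, the other damage sensor, and *Polh*, the translesion polymerase eta, were read too little to tell. *Ddb2* was at or under 3 reads in 5 *GFP* samples and 1 *Dbx2* sample, and *Polh* in 5 samples of each group. *Ddb2* also overlaps *Acp2* on the opposite strand, which was at 65.5 CPM on average, and how strand was used in counting is not stated.

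In metabolism, signalling and other functions (8 genes, 7 tested), 1 was higher, as were 8.03% of all genes. *Dcxr* (chromosome 11, 120725399 to 120727281), which encodes dicarbonyl and L-xylulose reductase, was at 16.7 to 71.7 CPM in *GFP*-NSPCs (median 39.7) and at 69.5 to 171 CPM in *Dbx2*-NSPCs (median 104). *GFP*-NSPC replicate 1 alone was as high as the lowest *Dbx2* sample. *Dcxr* rose by 1.45 on the log2 scale (SE 0.269, adjusted p = 0.000928). *Ephx1*, the microsomal epoxide hydrolase gene, was higher in the *Dbx2* sample of all 8 numbers without passing the test (0.37, adjusted p = 0.059, and 0.00611 with the block). *Ddit4* and *Sesn1*, whose products restrain mTORC1, were at 0.13 and -0.20 (adjusted p of 0.397 and 0.438). *Tigar*, which lowers glycolytic flux, was at -0.03 (adjusted p = 0.896), the long non-coding RNA *Pvt1* at 0.25 (adjusted p = 0.234) and the small GTPase gene *Rap2b* at 0.06 (adjusted p = 0.835).

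With the replicate number as a block, 15 of the 32 genes were higher and 1 was lower, where 10.8% and 10.9% of all genes were. The 5 genes added were *Mdm2*, *Mdm4*, *Gadd45a*, *Ephx1* and *Tob1*. With the replicate set as a covariate in limma instead, the same genes passed (adjusted p of 0.0152, 0.00288, 0.0473, 0.00857 and 0.0479), as did *Zmat3* (0.0392). The share of all genes in that setting is not given here. In the *Dbx2* sample of all 8 numbers, 11 of the 32 genes were higher than in the *GFP* sample of the same number (6.88% of all genes), of which *Ddit4* and *Ephx1* were not called.

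Replicates 1 to 4 and 5 to 8 were then compared on their own, with 4 samples of each group. In replicates 1 to 4, 11 of the 32 genes were higher (8.19% of all genes) and 1 was lower (7.37%), and in replicates 5 to 8, 12 were higher (11.5%) and 2 were lower (11.7%). *Ccng1*, *Trp53inp1*, *Phlda3*, *Fas*, *Gadd45g*, *Polk*, *Eda2r* and *Dcxr* were higher and *Btg1* was lower in both sets. *Mdm2*, *Zmat3* and *Tob1* were called in replicates 1 to 4 alone (0.44, 0.42 and 0.92, adjusted p of 0.0312, 0.018 and 0.0486). *Mdm4*, *Btg2*, *Ei24*, *Rap2b* and, downwards, *Sesn1* were called in replicates 5 to 8 alone (0.55, 1.42, 0.64, 0.28 and -0.54, adjusted p of 0.00195, 4.73e-05, 0.00064, 0.0151 and 0.0425). In neither set did they overlap for 5 genes upwards (*Gadd45g*, *Polk*, *Fas*, *Trp53inp1* and *Phlda3*) and for *Btg1* downwards, as in 3.30% and 3.34% of all genes.

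The difference of the fold between the sets passed its own test for *Btg2* and *Rap2b*, both with a higher fold in replicates 5 to 8, where 4.40% of all genes differed in that direction and 5.04% in the other. *Btg2* was at 55.6, 30.0, 30.0 and 24.99 CPM in *GFP*-NSPC replicates 1 to 4 and at 48.5, 41.0, 40.0 and 42.3 CPM in *Dbx2*-NSPCs. In replicates 5 to 8 it was at 37.7, 32.5, 29.0 and 19.3 CPM in *GFP*-NSPCs and at 88.3, 77.0, 83.1 and 65.2 CPM in *Dbx2*-NSPCs. The groups overlapped in the first set, by *GFP*-NSPC replicate 1, and were well apart in the second. The log2 fold change was 0.35 (adjusted p = 0.305) and 1.42, and the difference was 1.07 (adjusted p = 0.0153).

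*Rap2b* (chromosome 3, 61361638 to 61368430), which encodes a Ras-like GTPase, was at 330 to 359 CPM in *GFP*-NSPC replicates 1 to 4 and at 280 to 335 CPM in *Dbx2*-NSPCs. In replicates 5 to 8 it was at 196 to 219 CPM in *GFP*-NSPCs and at 240 to 273 CPM in *Dbx2*-NSPCs. The control level was thus higher in the first set, and the *Dbx2* level was above the control in the second set alone. The log2 fold change was -0.17 (adjusted p = 0.22) and 0.28, with a difference of 0.46 (adjusted p = 0.0137). Over all 16 samples the range was 196 to 359 CPM in *GFP*-NSPCs (median 275) and 240 to 335 CPM in *Dbx2*-NSPCs (median 276).

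The score of each sample was the mean log2(CPM + 0.5) of the 32 genes less that of all genes tested, and is given as a description. *GFP*-NSPCs had a mean of 0.53 ± 0.24 (SD, n = 8), ranging from 0.09 to 0.73, while *Dbx2*-NSPCs had a mean of 0.89 ± 0.10 (SD, n = 8), ranging from 0.77 to 1.002. Every *Dbx2* sample was above every *GFP* sample. Controls of replicates 1 to 4 averaged 0.37 ± 0.26 and their *Dbx2* counterparts 0.80 ± 0.02 (SD, n = 4), and the averages of replicates 5 to 8 were 0.68 ± 0.03 and 0.99 ± 0.02 (SD, n = 4). The level was higher in replicates 5 to 8 in both groups, and the gap between the groups was 0.43 and 0.30.

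**Figure D3:**
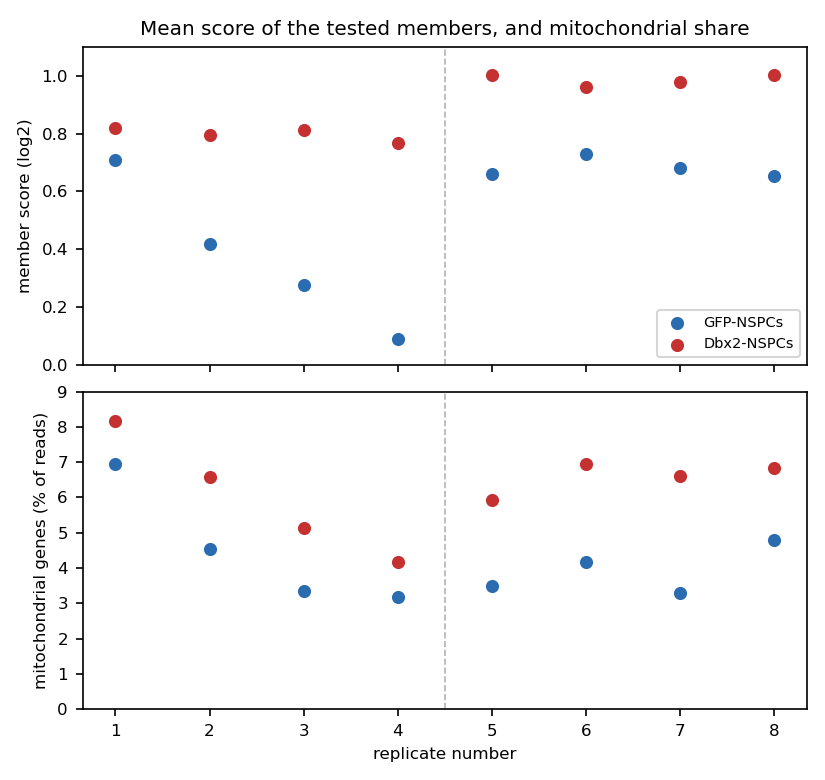
Score of the 32 genes (top, log2 units) and share of reads in mitochondrial genes (bottom, percent) by replicate number in *GFP*-NSPCs (blue) and *Dbx2*-NSPCs (red), with a dashed line between replicates 4 and 5. *GFP*-NSPC replicate 1 is at 0.71 in the top panel, above 0.09 to 0.42 in replicates 2 to 4, and at 6.96% in the bottom panel.

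*GFP*-NSPC replicate 1 had a score of 0.71, against 0.09 to 0.42 in *GFP*-NSPC replicates 2 to 4, and was the highest of these 4 samples for 20 of the 32 genes (62.5%, against 28.6% of all genes). Its mitochondrial share and immediate early genes were also the highest among *GFP*-NSPCs, and their part in the score was not tested. The mitochondrial share was 3.18 to 6.96% in *GFP*-NSPCs (median 3.84%) and 4.17 to 8.17% in *Dbx2*-NSPCs (median 6.60%), and it was higher in the *Dbx2* sample of all 8 numbers. With CPM computed without mitochondrial genes and *Gm42418*, 11 genes were higher and 1 was lower. For this setting the share of all genes is not given here, so the count is no result about the 32 genes. Without *GFP*-NSPC replicate 1, 10 were higher (8.63% of all genes), with *Ephx1* in place of *Eda2r*. Within replicates 1 to 4 and without it, 14 were higher (9.18% of all genes), and *Btg2* had a log2 fold change of 0.59 (adjusted p = 0.0152). The difference between the sets then passed for 6 genes, 2 with a higher fold in replicates 5 to 8 (*Btg2* and *Rap2b*, 4.53% of all genes) and 4 with a lower one (*Phlda3*, *Zmat3*, *Eda2r* and *Tob1*, 5.44%).

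The other genes of the pathway came from a list of 34, of which 33 had a row and 27 were tested. Of the upstream kinases, ligases and cofactors (13 listed, 10 tested), 2 were called, both lower, where 8.03% of all genes were higher and 7.78% lower. *Atr*, the kinase that answers replication stress, fell by 0.37 (adjusted p = 0.0427), a call kept in 12 of 30 alternatives with adjusted p up to 0.0858 (0.055 with median-of-ratios scaling). Its effector kinase *Chek1* fell by 0.54 (SE 0.150, adjusted p = 0.0184). *Atm*, the kinase that answers DNA breaks, was at -0.01 (adjusted p = 0.970) and *Chek2* at 0.22 (adjusted p = 0.4). The median log2 fold change of the 10 was -0.04.

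Of the other p53 targets (21 listed, 17 tested), 7 were higher and 1 was lower, against the same 8.03% and 7.78% of all genes, with a median log2 fold change of 0.19. *Cdkn1a*, which encodes the cyclin-dependent kinase inhibitor p21, was at 364 to 1867 CPM in *GFP*-NSPCs (median 1422) and at 1522 to 2651 CPM in *Dbx2*-NSPCs (median 2349). The groups overlapped because *GFP*-NSPC replicates 5 to 8 were above *Dbx2*-NSPC replicate 4, and *GFP*-NSPC replicate 6 was also above *Dbx2*-NSPC replicate 3. *Cdkn1a* rose by 1.14 (SE 0.314, adjusted p = 0.0178). Its fold was higher in replicates 1 to 4 than in 5 to 8, at 1.70 and 0.57, with a difference of -1.13 (adjusted p = 0.0191). Of the apoptotic targets, *Bbc3*, which encodes Puma, was at 12.3 to 31.9 CPM and 28.5 to 41.7 CPM and rose by 0.67 (SE 0.171, adjusted p = 0.011). Its log2 fold change was 1.07 in replicates 1 to 4 (adjusted p = 0.00711) and 0.27 in 5 to 8 (adjusted p = 0.228). The difference of -0.80 was not called (adjusted p = 0.0691), and it was called without *GFP*-NSPC replicate 1 (-1.03, adjusted p = 0.00445). *Bax* was at 52.6 to 135 CPM and 66.8 to 139 CPM, with a log2 fold change of 0.19 (adjusted p = 0.529).

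Further targets with the largest folds were *Pml*, the scaffold of nuclear bodies, with 0.70 (adjusted p = 0.00144), *Pidd1*, which activates caspase 2, with 0.70 (adjusted p = 0.024), and *Fdxr*, mitochondrial ferredoxin reductase, with 0.69 (adjusted p = 0.00661). *Sesn2*, which restrains mTORC1, rose by 0.60 (adjusted p = 0.00457), and *Ercc5* was higher as well (adjusted p = 0.0389, called in 19 of 30 alternatives). *Igfbp3*, which binds insulin-like growth factors, fell by 0.95 (adjusted p = 0.000365). *Trp53i11* was at -1.02 without passing the test over all samples (SE 0.533, adjusted p = 0.213), and was lower in the *Dbx2* sample of every number. It was called within replicates 1 to 4 (-0.73, adjusted p = 0.0144), within 5 to 8 (-1.32, adjusted p = 6.35e-06) and with the block (adjusted p = 0.000288).

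**Figure D4:**
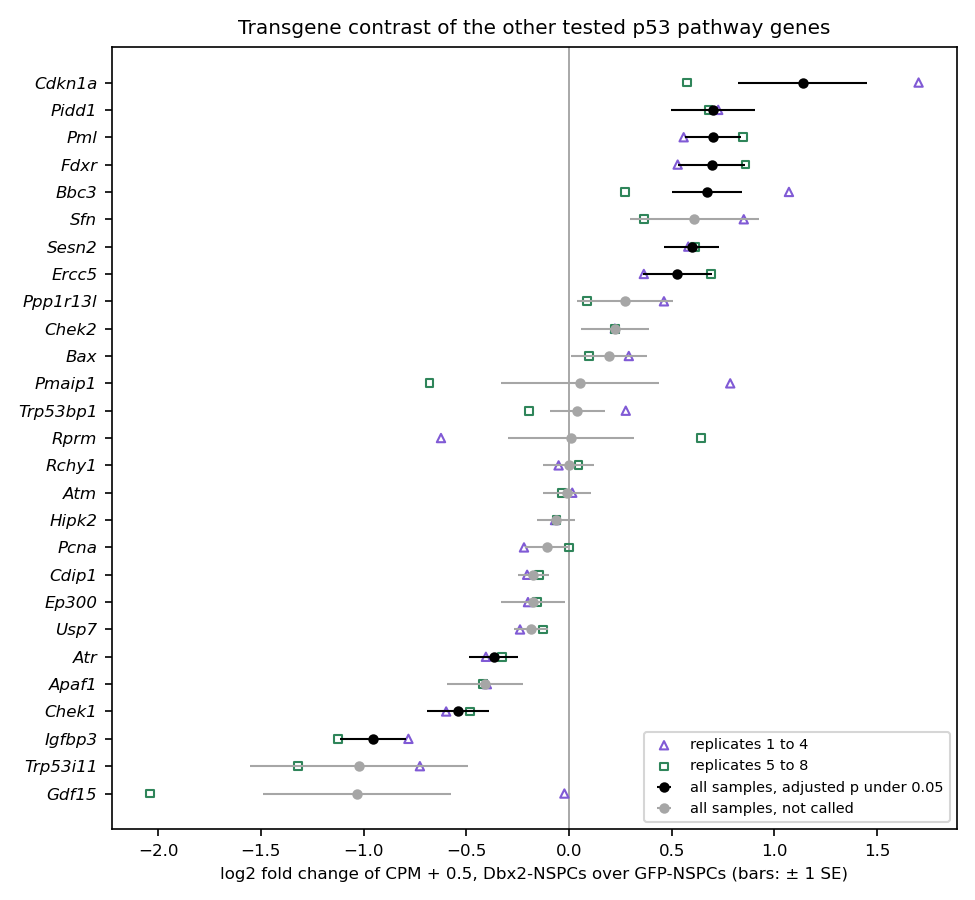
log2 fold change of CPM + 0.5, *Dbx2*-NSPCs over *GFP*-NSPCs, of the other 27 pathway genes tested, drawn as for the 32 genes above (circles over 16 samples with bars of 1 SE, triangles for replicates 1 to 4, squares for 5 to 8). *Cdkn1a* is at 1.70 in replicates 1 to 4 and 0.57 in 5 to 8, and *Igfbp3* is at -0.95 over all samples.

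Several targets, *Btg2* and the Gadd45 genes among them, also answer growth factor and stress signals, as immediate early genes do. Of 10 immediate early genes, *Atf3* was the one called (1.20, adjusted p = 0.0469, kept in 13 of 29 alternatives), and with the block 4 were higher (10.8% of all genes) and 1 was lower (10.9%). Their summed level was 685 to 1771 CPM in *GFP*-NSPCs and 879 to 2121 CPM in *Dbx2*-NSPCs, higher in the *Dbx2* sample of all 8 numbers, and its part in the result was not tested. Markers of other cells were also read, and summed to 840 to 1294 CPM in *GFP*-NSPCs and 706 to 906 CPM in *Dbx2*-NSPCs for neurons (*Map2* lower), 225 to 818 and 243 to 603 CPM for astrocytes (*Gfap* higher, *Aldh1l1* lower) and 54.7 to 112 and 97.2 to 182 CPM for oligodendrocytes (*Cnp* higher, *Mog* and *Mag* at the floor). Endothelial markers were at most at 18.6 CPM in sum (*Flt1* higher, *Cdh5* and *Cldn5* at the floor) and fibroblast markers at 5.38 CPM.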

How the data were processed

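QuantSeq 3′ mRNA libraries from 100 ng of total RNA were sequenced in single-end mode. Reads had been mapped to GRCm38 (mm10) with STAR version 2.5.0a after FastQC version 0.11.8, and the authors deposited CPM values per gene (edgeR version 3.36 in the submitters' processing notes). The counting tool and its use of strand are not given in the sources used here. The deposited CPM summed to 999485 to 999614 per sample, and whole reads were recovered for 99.968% of values above 0 (tolerance 0.0051 CPM).

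The 12533 genes over 1 CPM in 4 or more of the 16 samples were fitted on log2(CPM + 0.5) with limma version 3.58.1 (eBayes with trend, two-sided, R version 4.3.3), with Benjamini-Hochberg adjustment over all of them and a threshold of 0.05. The fit had no covariate, since the cell line used as one in the study is not in the labels. Replicates 1 to 4 and 5 to 8 were fitted alone, and the difference of their folds was a contrast of one fit. Alternatives were other pseudocounts, filters, scalings, a replicate block, the replicate set as a covariate, leaving out each sample, and edgeR version 4.0.16 and DESeq2 version 1.42.0 on the recovered reads. Deviations of same-numbered samples from their group means had correlations of 0.152 to 0.303 in all 8 pairs, which does not show that the numbers pair the samples. Much of this was shared by the whole set: the mean was 0.226 with the same number and 0.199 with other numbers of the set, the own number was highest for 4 of 8, and deviations from the means of each set had correlations of -0.00741 to 0.119. Of these last, only that of number 6 was below 0, and whether the numbers pair the samples was not tested. Scripts were tested on simulated data.

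The members and lists were chosen with earlier results of these data known. Full values are given for *Trp53*, *Mdm2* and *Mdm4* and for each member called in the transgene contrast or in the difference between sets, and, of the other pathway genes, for *Cdkn1a*, *Bax*, *Bbc3* and the 5 more called genes with the largest fold. One further gene was left out of that list and is not reported here. *Ercc5*, *Trp53i11*, *Atr*, *Chek1*, *Atm*, *Chek2* and the genes named in the marker lists fall outside this rule and were chosen after their values were seen.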

Additional observations from a re-analysis of the deposited data

Results flagged for a closer look

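Of 68 groups of samples examined for a value far from the rest, 3 had one, and chance gives about 1 in 20 groups. *Sesn1* was at 29.1 CPM in *Dbx2*-NSPC replicate 2, and *Ddb2* at 4.58 CPM in *Dbx2*-NSPC replicate 5, each far above the other *Dbx2*-NSPCs. The mitochondrial share was 6.96% in *GFP*-NSPC replicate 1, far above the other *GFP*-NSPCs.

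The fold between *Dbx2*-NSPCs and *GFP*-NSPCs differed between replicates 5 to 8 and 1 to 4, by the limma contrast over all genes, for 5 genes followed here. Of all genes tested, 4.40% had a higher fold in replicates 5 to 8 and 5.04% a lower one, so the count is no trait of these genes. The difference was 1.07 on the log2 scale for *Btg2* (adjusted p = 0.0153) and 0.46 for *Rap2b* (adjusted p = 0.0137). For *Cdkn1a* it was -1.13 (adjusted p = 0.0191), and it was no longer called without *GFP*-NSPC replicate 3 (-1.02) or 4 (-0.90). Without *GFP*-NSPC replicate 1 the *Cdkn1a* difference was -1.51 (adjusted p = 4.47e-07). *Rprm*, which encodes a G2 arrest mediator, fell by 0.62 in replicates 1 to 4 and rose by 0.64 in 5 to 8, a difference of 1.27 (adjusted p = 0.000541) hidden in the log2 fold change of 0.01 over all samples. *Gdf15*, a stress-induced cytokine gene, was at -0.02 and -2.04, a difference of -2.02 (adjusted p = 0.00922).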

How the results depend on the processing

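The count of 10 higher genes (where 8.03% of all genes were higher) was 15 with the replicate block (where 10.8% were). It was 16 with the replicate set as a covariate in limma and 16 in edgeR, and between 8 and 13 in the other settings that kept all samples. A setting also changes the calls of all genes, and those shares are not given here, so a changed count is no result about the 32 genes. Leaving out each sample gave 8 to 12 higher and 1 lower over all samples. In replicates 1 to 4, 11 higher became 6 without the trend and 5 to 14 with a sample left out (5 without *GFP*-NSPC replicate 4, 6 without 2 or 3, 7 without *Dbx2*-NSPC replicate 1 or 2), and the 1 lower became 0 to 1 (0 without *GFP*-NSPC replicate 3 or 4 or *Dbx2*-NSPC replicate 2 or 3). In replicates 5 to 8, 12 higher became 9 to 12 with a sample left out, and 2 lower became 1 with median-of-ratios scaling, 1 with the block and 1 to 2 with a sample left out. The 2 differences between sets became 1 without the trend and 2 to 6 with a sample left out (6 without *GFP*-NSPC replicate 1). Of the other pathway genes, 7 higher became 5 to 7 and 3 lower became 2 to 3 with a sample left out, and 3 lower became 5 with the block (*Usp7* and *Trp53i11* added) and 6 with the set covariate. The 1 immediate early gene called became 0 with a pseudocount of 0.1, no filter, a mean of at least 10 CPM, quantile normalization, no trend or edgeR, 5 with the block, 3 with the set covariate, 4 with that covariate in edgeR, 3 without the samples numbered 1 (chosen after seeing the data, as was CPM without mitochondrial reads) and 0 to 3 with a sample left out. The score difference of 0.37 was 0.30 to 0.39 with a sample left out. Sign changes with a sample left out were of uncalled genes near 0: *Gadd45b* ranged from -0.042 (without *GFP*-NSPC replicate 5, and -0.0039 without *Dbx2*-NSPC replicate 8) to 0.31, *Rrm2b* from -0.10 to 0.014 (without *Dbx2*-NSPC replicate 6, and 0.0074 without 5), *Rap2b* from -0.0081 (without *GFP*-NSPC replicate 7, and -0.0078 without 8) to 0.12, and *Tigar* from -0.092 to 0.013 (without *GFP*-NSPC replicate 4, 0.0062 without 2 and 0.0089 without *Dbx2*-NSPC replicate 7). The cause was not tested for these changes. Over all samples, the block removed no call among the 32 genes. *Fas*, *Ddb2* and *Polh* are limited by depth.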
